A study of Drosophila melanogaster with 4 samples.

Results

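Of 61657 non-control probes on a Drosophila melanogaster expression array, 32419 had no outlier flag and were well above background on both eag mutant arrays. Of these, 56 lay at least 4-fold above both eag wild type arrays on each of the 2 mutant arrays. The 56 members were chosen by their own signal. Intensities were scaled to each array's 75th percentile and put on a log2 scale, and the gap of a probe was the lower eag mutant value minus the higher eag wild type value. A member met the flag and background conditions and had a gap above 2 log2 units. The members were 0.173% of the 32419 probes that could have been chosen. Without the background condition, 304 probes had a gap above 2. The members' difference between genotypes is a description of what was picked and was given no test.

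RNA came from FACS-sorted neuroblasts of dissociated brains, 20000 to 40000 cells a sample, and was amplified before labelling. The 2 eag mutant samples carried an eag mutation and overexpressed dpn, and the 2 eag wild type samples overexpressed dpn with eag intact. In both groups insc-Gal4, a driver active in neuroblasts, expressed the membrane marker mCD8-GFP by which cells were sorted. The labels name neither the eag allele, nor the driver of dpn, nor the age or sex of the animals, and do not say whether replicates were separate sorts. Because dpn was overexpressed everywhere, the comparison reads the eag genotype on that background and not in wild type neuroblasts.

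Neuroblasts are the neural stem cells of the fly brain. They divide asymmetrically into a self-renewed neuroblast and a smaller daughter committed to differentiation. Deadpan, the product of dpn, is a basic helix-loop-helix repressor that maintains neuroblast identity, and its overexpression can produce supernumerary neuroblasts. Ether-a-go-go, the product of eag, is the founding member of a family of voltage-gated potassium channels and was named after the leg shaking of mutant flies under ether. The vertebrate channel EAG2 belongs to the same family.

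The files name probes by number only, and 0 of these numbers were found in the gene table at hand. What the 56 probes measure is therefore not known, and neither the eag transcript nor the defining markers of neuroblasts, neurons or glia could be read to check the labels. Members are described by level, by number and by the 6 letter series of the IDs, and only 2 are printed by ID. In the limma fit over all 35366 tested probes, 0 (0%) passed a Benjamini-Hochberg adjusted p of 0.05, with a smallest adjusted p of 0.222 in limma. At an unadjusted p under 0.05 limma placed 3763 probes (10.6%) higher and 2631 lower in the mutant. That split moved with the scaling. Limma gave 2580 higher and 4257 lower after quantile normalization, 1458 and 7182 with arrays scaled to the median, and 6296 and 2481 after normexp background correction. Before scaling, the 75th percentile of intensity was 417 and 278.2 on the mutant arrays, against 906.1 and 555.7 on the wild type arrays. Scaling thus raised the values of both mutant arrays and lowered those of both wild type arrays. With normexp it also acted on an offset added to every probe, so that dim probes can lean toward the mutant by construction. In sorted cells, more transcript per cell and more cells that carry it cannot be told apart.

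All 56 members were brighter on the mutant arrays before any scaling, as the rule required. The 75th percentiles of any 2 arrays differed by less than 4-fold, so that a 4-fold gap needed a brighter mutant before scaling. The lower unscaled mutant intensity was 1.24 to 13.4 times the higher unscaled wild type intensity, with a median of 1.75. After scaling the median gap of the members was 4.98-fold, so that scaling widened the typical gap. Over all tested probes, 533 (1.51%) had both unscaled mutant values above both unscaled wild type values. Since the rule fixed this outcome for the members, that share is no support for them. After scaling, members had a median intensity of 163.4 and 152.2 in mutant replicates 1 and 2, against 27.9 and 23.7 in wild type replicates 1 and 2. The gap ran from 2.01 to 4.88 log2 units with a median of 2.32, and 42 members had a gap of at most 2.5. It exceeded 3 log2 units in 4 members, of which 3 were above background on neither wild type array and 1 on a single one, and the bound described below reached 8-fold in 1 of the 3. Members were thus mostly close to the threshold. The 3 members just inside it had gaps of 2.01, 2.01 and 2.03, and the 3 probes just outside had 1.99 each. A further 185 probes that met the flag and background conditions had a gap above 1.5 and up to 2.

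Most members gave little signal on the wild type arrays. By their wild type mean, 51 of 56 lay below the 25th percentile of the 32419 eligible probes, and by their mutant mean, 28 did. Signal also depends on the probe, so that these ranks say how well a member was measured and not how abundant its transcript was. The members fell into 3 classes by what the wild type arrays measured. Both wild type arrays were well above background for 28 members, 1 of the arrays for 8, and neither for 20.

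In the 28 members measured on all 4 arrays, the difference between group means ran from 2.11 to 3.30 log2 units (4.31-fold to 9.87-fold, SE 0.25 to 0.44 log2 units from limma, n = 2 per group). Probe ft07456 had the largest gap among them, 2.55 log2 units. Its scaled intensity was 218.5 and 218.1 in mutant replicates 1 and 2, against 31.3 and 37.2 in wild type replicates 1 and 2. The mutant pair was nearly equal and both wild type values were several times lower, so that the means differed by 2.68 ± 0.31 log2 units (SE from limma, n = 2 per group).

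The member with the most signal belonged to series fc. It had 71415 and 117619 units on the mutant arrays, against 17142 and 16764 on the wild type arrays. Its wild type values nearly coincided, whereas the mutant values differed by more than the wild type pair did. The probe with the preceding number had a gap of 1.84 log2 units and missed the threshold, with 58935 and 111014 units in the mutant, against 16039 and 16493 in the wild type. In both probes mutant replicate 2 was the highest array and the wild type pair was nearly equal.

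Where neither wild type array was well above background, as in 20 members, only a lower bound of the fold can be given. It sets the mutant mean against, for each wild type array, the higher of the probe's own signal and the dimmest signal well above background. These bounds ran from at least 3.45-fold to at least 8.98-fold higher in the mutant, with a median of 5.38, and reached 4-fold in 18 of the 20. They hold against each array's own dimmest detected spot, and spots not above background can read higher than that. Against a common floor of 34.7 intensity units, the highest of the 4 arrays' dimmest detected signals, the differences of these 20 were 0.39 to 1.93 log2 units and 0 of the 20 had a gap above 2, so that a 4-fold difference of these members depends on where the detection limit is set. Probe fc14833 had the largest gap of all members, 4.88 log2 units. It had 53.8 and 80.1 units on the mutant arrays, against 1.83 and 1.08 on the wild type arrays. Both wild type values lay near 0, and against the arrays' own limits the level was at least 4.99-fold higher in the mutant. With the common floor its difference was 0.92 log2 units, and after normexp background correction it was 1.55. The normexp value includes what scaling does to the offset added under that setting. The next number in its series had 38.3 and 62.0 units in the mutant, against 1.56 and 0.507 in the wild type, but was well above background on 1 array only and was not tested. With the 20 members at their bounds, the median difference of the 56 was 2.55 log2 units, against 2.76 with fitted values. With the common floor applied to all 56 it was 2.10.

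The 8 members measured on 1 wild type array have no exact difference either, since the other wild type value was not above background. Their intensities ran from 63.7 to 379.7 units in the mutant, against 6.49 to 33.7 in the wild type. The member of this class in series fu had 163.8 and 379.7 units on the mutant arrays, against 21.4 and 6.69 on the wild type arrays. Both groups were widely spread in this probe, although they did not overlap.

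Replicates of a group differed in the members about as much as in other probes. The median absolute log2 difference between mutant replicates was 0.296 in members and 0.295 in all tested probes, and between wild type replicates it was 0.363 and 0.356. At least 2-fold differences were found in 5 of 56 members (8.93%) for the mutant pair and in 8 (14.3%) for the wild type pair, against 6.98% and 10.6% of all tested probes. The rule takes the lower mutant and the higher wild type value and so disfavours widely spread replicates, and most members were dim in the wild type. These values therefore do not show that members were measured as reproducibly as other probes. In 1 member of series fc, a wild type array read below 0 and was set to the floor. Its intensities were 42.2 and 48.7 in the mutant, against 6.61 and -2.99 in the wild type. Wild type replicate 2 held 1291 tested probes that were at least 4-fold lower there than on any other array, and this was the only member among them. Of the wild type pair, replicate 1 was the higher in 37 members (66.1%), against 38.5% of all tested probes. Mutant replicate 1 was the higher of its pair in 32 members (57.1%), against 49.6%.

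All 6 series contributed members. Series fc held 23 of them, fe 13, ft 8, fu 6, and fr and fv 3 each. The small series fr and fv had 434 eligible probes each, so that their 3 members were 0.691% of each, against 0.137% in fc and 0.216% in fe. In ft and fu the shares were 0.158% and 0.16%. With 3 members each, the shares of fr and fv rest on very few probes, and in both series 2 of the 3 had consecutive numbers. No source used here says what the letters stand for.

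A total of 12 members formed 6 pairs with consecutive numbers, in series fc, fe, fr, fu and fv. Consecutive probes did not lie side by side on the array. The median distance between consecutive numbers was 134.8 spot steps over tested probes, and in the 6 pairs it was 55.5 to 317.8. In the fr pair, the second probe had 2355 and 4299 units in the mutant, against 351.4 and 411.9 in the wild type, and the first had 249.9 and 205.2, against 22.5 and 25.2. The second differed by 3.06 ± 0.34 log2 units (SE from limma, n = 2 per group), and the first was above background on 1 wild type array only. Mutant replicate 2 was the higher of its pair for the second probe and the lower for the first.

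One fc pair was measured on all 4 arrays. Its first probe had 464 and 617.1 units in the mutant, against 80.9 and 40.1 in the wild type. Its second had 576.4 and 860.5 in the mutant, against 103.1 and 49.4 in the wild type. In both probes mutant replicate 2 was the highest array and wild type replicate 2 the lowest. The fv pair had 671 and 723.5 units in the mutant, against 146.8 and 114.4 in the wild type, for its first probe, and 255.6 and 255.7, against 46.8 and 38.6, for its second. Wild type replicate 1 was the higher of its pair in both.

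Probes next to members by number were not used to choose them and were described separately. There were 100 such neighbours that were not members, of which 63 were tested. Both mutant arrays lay above both wild type arrays in 33 of the 63 (52.4%), against 28.5% of all tested probes. A gap above 1 log2 unit was found in 17 (27%), against 2.45% of all tested probes, and 7 of the 17 had fewer than 2 wild type arrays above background and were kept through the mutant arrays. Among probes above background on all 4 arrays, 25 of 52 neighbours (48.1%) lay above the wild type and 10 (19.2%) had a gap above 1, against 28.7% and 2% of all such probes. In 11 of the 63 neighbours both mutant arrays lay below both wild type arrays. At 10, 20 and 50 numbers from a member, 24 of 69, 16 of 62 and 27 of 73 tested probes did. The share over all tested probes was not counted. At an unadjusted p under 0.05 in limma, 22 of the 63 were higher and 1 lower, against 3763 and 2631 of all 35366 tested probes. The smallest adjusted p among the neighbours was 0.222 in limma. The median difference of the neighbours was 0.42 log2 units, against 0.03 over all tested probes, and the values ran from -0.72 to 3.02. Neighbours are measured on the same 4 arrays. A probe that met the flag and background conditions with a gap above 2 could be no neighbour, because it was a member.

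The share of high probes was largest directly next to a member. At 2 numbers from a member, 25 of 76 tested probes (32.9%) lay above the wild type and 5 (6.58%) had a gap above 1, with a median difference of 0.18 log2 units. At 3, 4 and 5 numbers, 33.8%, 36.4% and 37% lay above the wild type and 6.76%, 9.09% and 7.41% had a gap above 1, with medians of 0.10, -0.03 and 0.03. At 10 numbers they were 18 and 2 of 69 (26.1% and 2.9%), with a median of -0.04, close to all tested probes. At 20 numbers 18 of 62 lay above the wild type and 0 had a gap above 1, and limma's unadjusted p was under 0.05 for 7 that were higher and 5 that were lower, where 10.6% of all tested probes were higher at that p.

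Members differed in how far their neighbours shared the difference. A consecutive number that was itself a member, or was tested and had both mutant arrays above the wild type, was found for 38 of 56 members (67.9%), against 35.5% of all 32419 eligible probes. For 28 of 56 (50%) a consecutive number was a member or was tested with a gap above 1 log2 unit, against 3.32% of eligible probes. Both counts include the 12 members of the 6 pairs, whose consecutive number was picked by the same rule. For these 12 the counts are no support. In 9 of the 51 members with a tested consecutive number, each such number had a lower mean in the mutant, and 5 members had no tested consecutive number. The same count over all eligible probes was not taken, so that the 9 cannot be judged as many or few. By series, the median difference of the neighbours was 2.03 log2 units in fr (3 probes), 0.56 in fe (16), 0.45 in fc (26), 0.32 in ft (11) and 0.13 in fu (7), and fv had no tested neighbour. Over all tested probes, the differences of consecutive numbers correlated with r = 0.677 in fv, 0.522 in fr, 0.482 in fe, 0.437 in fc, 0.186 in fu and 0.085 in ft, across 307 to 12976 pairs. These correlations are across probes of the same 4 arrays, which are not independent replicates. Neighbours of the 28 members measured on all 4 arrays had a median difference of 0.84 log2 units (32 probes), against 0.17 for neighbours of the 20 members not above background in the wild type (20 probes).

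The authors' deposited table, whose scale and centring no source used here gives, held 8 of the 56 members (14.3%), against 50.1% of all tested probes. Of the 8, 7 were measured on all 4 arrays. In the authors' deposited table, both mutant values lay above both wild type values in 7 of the 8, against 25.6% of its 17822 probes. In the exception, a member of series fc, the authors' deposited table gave 0.095 and -1.28 in the mutant, against -2.28 and -1.27 in the wild type. There the lower mutant value and the higher wild type value differed little. These values come from the same arrays and are no separate support.

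How many probes met the rule depended on the processing. With arrays scaled to the median 28 did. With normexp background correction and an offset of 50, 3 probes met it, namely 3 of the 56, which were the second probe of the fr pair and the fc pair measured on all 4 arrays. The offset was added before the arrays were scaled, so that a probe without signal can read higher on the mutant arrays. With a floor of 34.7 intensity units, 28 met the rule, and with quantile normalization 33, all of them among the 56. The 28 under the floor were 24 members measured on all 4 arrays and 4 measured on 1 wild type array. Of the 28 members measured on all 4 arrays, 15 kept a gap above 2 after quantile normalization and 8 with arrays scaled to the median. After cyclic loess 19 of these members did, and after normexp 3. Under 5 other settings (quantile normalization, scaling to the median, cyclic loess, normexp and the raised floor), the mutant arrays stayed above the wild type arrays in 56 of 56 members. The members were picked by a gap above 2 in the same signals, so that this count is no separate support. A gap above 2 in all 5 was found for 3 members, and in none of the 5 for 11. Under each of these 5 settings, more of the neighbours than of all tested probes lay above the wild type. The shares were closest after normexp, with 57.1% of neighbours against 38.6% of all tested probes, and with arrays scaled to the median they were 36.5% and 13.2%. The scaled offset can raise both normexp shares for dim probes, and how far it did was not tested.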

How the data were processed

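One-colour arrays were used, 2 per genotype, each with 1.5 ug of Cy3-coupled amplified RNA, per the labels' protocols. Per the file headers, all lay on 1 slide with 1 scan, and Agilent Feature Extraction 10.7.3.1 gave a background-subtracted intensity for each spot without normalizing arrays to one another. The headers name dm3 for the array design. The authors' deposited value table has a score for each of 17822 probes. No source used here states its method, and it served for counts and directions only.

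Control spots (1319 of 62976) were left out. Each array was divided by its 75th percentile over non-control probes and multiplied by the mean of the 4 percentiles, set to a floor of 1 and put on a log2 scale. A probe without an outlier flag was kept if both arrays of either genotype were well above background (35366 probes). The kept probes were fitted across all probes with limma 3.58.1 in R 4.3.3 (lmFit, eBayes with an intensity trend, two-sided, Benjamini-Hochberg adjustment, threshold 0.05). The fit was tested on simulated data. Neighbours are probes of the same series whose numbers differ by 1. The 2 IDs printed are the members with the largest gap among those measured on all 4 arrays and among the others. The gene lists and marker lists that had been written down gave no value, since probes are not paired with genes here. The members and lists were chosen with earlier results of these data known. With 2 arrays per group, limma's SE and p-values combine how far a probe's replicates differ with the spread of all tested probes at like intensity. Differences between these samples of a group may be technical, and the number of arrays limits the precision.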

Additional observations from a re-analysis of the deposited data

How the results depend on the processing

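The number of probes meeting the rule was 33 after quantile normalization, 28 with arrays scaled to the median, 3 after normexp, 28 with the raised floor, 304 without the filter on dim probes, 28 when all 4 arrays had to be above background, 868 with a gap above 1 and 4 with a gap above 3, against 56 in the main processing. Cyclic loess gave 42, of which 40 were among the 56. Leaving out 1 array loosens the rule by construction and gave 136 to 1611, the highest without wild type replicate 1. The median difference of the members was 2.45 log2 units after quantile normalization, 2.41 scaled to the median, 2.56 after cyclic loess, 1.67 after normexp, 2.10 with the raised floor, 2.55 for those above background on all 4 arrays, and 1.71 and 3.96 with gaps above 1 and 3. With 1 array left out it ran from 2.57 to 2.89. The neighbours' median of 0.42 was 0.077 scaled to the median, where the median of all tested probes was -0.31, against 0.03 in the main processing, -0.10 after quantile normalization and 0.18 after normexp. Relative to all tested probes it was 0.39 both scaled to the median and in the main processing. It was 0.58 without the filter, 0.25 and 1.73 for neighbours of the members with gaps above 1 and 3 (5 probes for the last), and 0.41 to 0.50 with 1 array left out. In limma, 274 probes passed an adjusted p of 0.05 without the 1291 probes low on wild type replicate 2. Those probes were picked by their spread in the same values. Leaving them out narrows the spread that limma shares between probes, so that this count is no separate support. With 1 array left out, 0 to 2729 passed, the highest without wild type replicate 1, where the fit takes the spread of the single wild type array from the mutant pair. With the replicate number as a block, 0 passed, and at an unadjusted p under 0.05 in limma there were 4504 higher and 2664 lower probes. The differences between replicates correlated with r = 0.137 between genotypes, and the replicates share only a number. Probes ft07456 and fc14833 were higher in the mutant under every alternative that gave them a value, with differences of 1.87 to 2.80 and 0.92 to 5.92 log2 units, the smallest after normexp and with the raised floor. Both were picked by their gap in the same signals, so that this direction is no separate support. The causes of the changes between settings were not tested. Low signal over background limits 28 of the 56 members, which were not above background on at least 1 wild type array.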

Other observations

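The members were unevenly placed along the rows of the array. Rows 193 to 384 of 384 held 37 of the 56 (66.1%), where 50% of the eligible probes lay, and the left and right sides of the array held 28 each. Among the 868 eligible probes with a gap above 1, 447 (51.5%) lay in those rows. The median local background at the members' spots was 20 and 21 units on the mutant arrays, against 20 and 21 on the wild type arrays. At eligible probes it was 20 and 21 in the mutant, against 20 and 22 in the wild type. The part of spot position in the choice of members was not tested.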
